A study of Mus musculus with 6 samples.

Results

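The 10 transcription factors described here set the choice between memory and effector fate in CD8+ T cells: Tcf7, Lef1, Bach2, Id3, Id2, Foxo1, Eomes, Tbx21, Zeb2 and Prdm1. They were chosen by name for their known roles, out of 28773 genes in the expression tables, and all 10 were measured. Their RNA was sequenced on day 35 in CD8+ T cells purified from the spleens of mice, in 2 groups of 3 samples. In MWA+PBS (replicates 1 to 3) the tumor had been treated by microwave ablation, local heating that destroys it in place, followed by PBS vehicle. In MWA+2DG (replicates 4 to 6) the same ablation was followed by 2DG (2-deoxy-D-glucose), which resembles glucose and inhibits glycolysis. Both groups therefore carried a tumor and the ablation, and a group without ablation was not analysed here. All mice of the study were female, and the injections, given into the peritoneum, had ended before day 35. The labels give no strain, age or tumor line for these samples, nor whether each came from 1 mouse, so p-values measure only the spread between these samples.

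After antigen contact, a CD8+ T cell can become a short-lived killer or a long-lived memory cell that can divide when the antigen returns. Tcf7 (which encodes TCF1), Lef1, Bach2, Id3 and Foxo1 are known to favor the quiescent or memory side, whereas Tbx21 (T-bet), Zeb2, Prdm1 (Blimp-1) and Id2 favor terminal effector cells. Eomes, a T-box relative of Tbx21, is used by both, and is known for keeping memory cells responsive to homeostatic cytokines. These are textbook roles in pure CD8+ T cells, while the values below are averages over bulk samples.

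The 250 bases upstream of the transcription start are shown for the factor that rose most, the factor that fell most, and the lowest factor, whose promoter held the most motif matches. They come from RefSeq on GRCm38.p6, where all 10 factors had an entry, and the most upstream start of each gene was used. Each is written 5′ to 3′ on the gene's strand, with motif matches in capitals: Eomes lies on the plus strand at chr9:118477939-118478188, Zeb2 on the minus strand at chr2:45117443-45117692 and Prdm1 on the minus strand at chr10:44458749-44458998.
Eomes: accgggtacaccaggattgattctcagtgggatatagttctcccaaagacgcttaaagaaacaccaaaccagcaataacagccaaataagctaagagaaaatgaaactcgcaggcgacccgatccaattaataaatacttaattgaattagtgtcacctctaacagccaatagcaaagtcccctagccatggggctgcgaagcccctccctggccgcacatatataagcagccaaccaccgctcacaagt
Zeb2: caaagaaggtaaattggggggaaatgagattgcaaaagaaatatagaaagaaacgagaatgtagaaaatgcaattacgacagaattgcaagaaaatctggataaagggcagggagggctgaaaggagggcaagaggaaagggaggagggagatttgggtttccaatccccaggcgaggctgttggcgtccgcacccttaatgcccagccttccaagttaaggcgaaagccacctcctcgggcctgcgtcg
Prdm1: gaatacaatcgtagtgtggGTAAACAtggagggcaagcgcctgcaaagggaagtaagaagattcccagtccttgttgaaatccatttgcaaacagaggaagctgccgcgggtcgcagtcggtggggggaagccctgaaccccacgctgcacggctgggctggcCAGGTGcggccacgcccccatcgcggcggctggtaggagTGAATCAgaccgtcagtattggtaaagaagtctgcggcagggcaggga

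The promoters were searched on both strands for short motifs of the factors themselves and of the STAT family. In the Prdm1 promoter a FOXO motif (GTAAACA) began 231 bases before the start, a ZEB E-box (CAGGTG) 87 bases before it and a BACH/AP-1 motif (TGANTCA) 48 bases before it. Among all 27025 promoters of this length, 3.06% held the FOXO motif, 17.1% the ZEB E-box and 6.85% the BACH/AP-1 motif. The Tbx21 promoter also held a ZEB E-box, and the Bach2 promoter held a TCF/LEF motif (CTTTGA, in 14.1% of promoters) and a STAT motif (TTCNNNGAA, in 7.14%). No match to any of these motifs, to the T-box motif (GGTGTGA, in 3.31%) or to the PRDM1 motif (GAAAGT, in 12.4%) was in the Eomes or Zeb2 window. The Eomes window had a GC content of 46.4% and the Zeb2 window 49.6%, beside a median of 52.0% over all promoters. A match describes the letters of the window only.

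Values are FPKM, the fragments assigned to a gene scaled by its transcript length and by the library's mapped fragments, so levels can be set side by side between genes. Each sample had 22414 to 23340 genes above 0, and the read depth is unknown. Fold changes are MWA+2DG minus MWA+PBS on log2(FPKM + 1), with a pseudocount of 1 that understates changes of low genes, and with the standard error (SE) of a limma fit. The test covered the 12444 genes with a mean FPKM of at least 1, all 10 factors among them, and a gene was called at a Benjamini-Hochberg adjusted p under 0.05. The labels name no batch, so a batch aligned with treatment, if there was one, cannot be told apart from 2DG.

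The samples held T cell transcripts and, at levels that differed between the groups, transcripts of other cells. Cd8a was 231.5 FPKM on average in MWA+PBS and 366.4 in MWA+2DG, Cd3e was 97.3 and 127.0, and Cd3d was 56.6 and 71.9. The summed FPKM of 19 T lineage genes was 2201 to 2362 in the MWA+PBS samples and 3103 to 3350 in the MWA+2DG samples, and 16 of the 19 were called higher. The summed FPKM of 13 macrophage markers was 683.1 to 738.9 and 104.2 to 110.9, with 13 of 13 called lower (Adgre1, 31.4 and 4.60). For 10 neutrophil markers it was 65.2 to 89.0 and 1536 to 1710, with 9 of 10 called higher (S100a8, 5.31 and 136.3). Transcripts of these phagocytes thus shifted from macrophages toward neutrophils in every MWA+2DG sample. For 13 B cell markers it was 15.7 to 17.1 and 63.6 to 70.0, with 10 of 11 tested called higher, Bank1 called lower (Cd79a, 1.22 and 12.5), and Fcer2a and Vpreb3 listed at 0 in at least 1 sample. The summed levels of the plasma cell, natural killer cell, dendritic cell, and CD4 and regulatory T cell markers were all lower in MWA+2DG: 61.9 to 69.1 against 27.5 to 29.0, 10.1 to 11.3 against 7.04 to 8.37, 9.03 to 10.9 against 4.0 to 5.02, and 10.4 to 10.8 against 8.04 to 8.56. Their first markers, Jchain (62.2 and 24.7), Ncr1 (6.54 and 4.92), Flt3 (2.82 and 0.617) and Cd4 (2.75 and 1.66), were called lower. Jchain made up most of the plasma cell sum and Ncr1 most of the natural killer cell sum. Members that did not follow their sum were Mzb1 (1.83 and 1.96), Foxp3 (0.55 and 0.593), Cd40lg (1.35 and 1.49), Ctla4 (1.33 and 1.65), Cd209a (0.603 and 0.663) and Klra4 (0.08 and 0.207), and Tnfrsf17, Klrb1b and Klra4 were listed at 0 in at least 1 sample. In bulk samples, fewer cells of a type and less RNA per cell cannot be told apart.

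**Figure D1:**
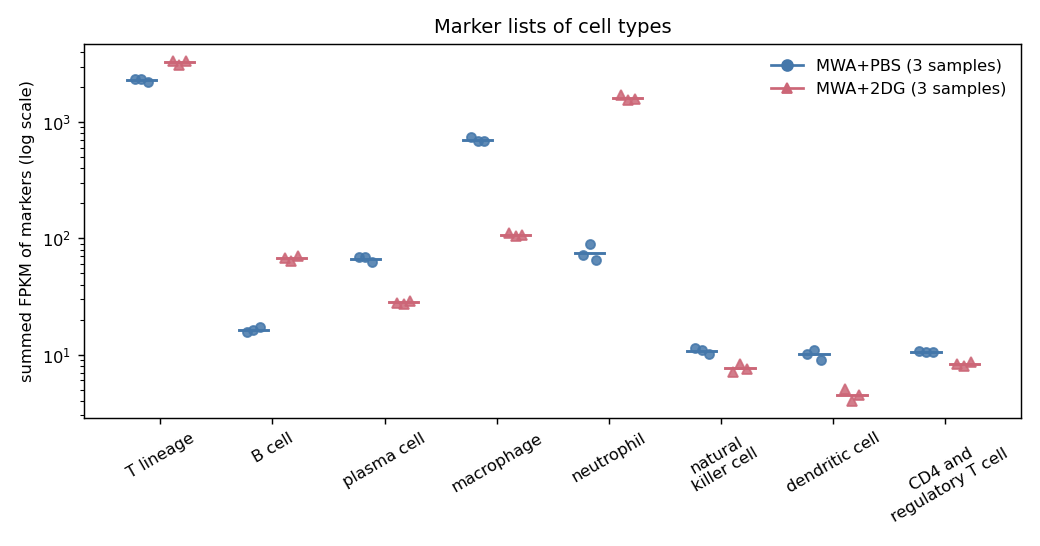
Summed FPKM (log scale) of each cell type marker list in each of the 6 samples; circles are MWA+PBS, triangles are MWA+2DG and lines are group means. Macrophage markers sit at 683.1 to 738.9 in MWA+PBS against 104.2 to 110.9 in MWA+2DG, neutrophil markers at 65.2 to 89.0 against 1536 to 1710, and T lineage genes at 2201 to 2362 against 3103 to 3350.

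Of the 10 factors, 4 were higher in MWA+2DG (Eomes, Id3, Foxo1 and Tbx21), 1 was lower (Zeb2), and Tcf7, Lef1, Bach2, Id2 and Prdm1 did not pass the test. Eomes rose to 2.00 times and Zeb2 fell to 0.426 times its MWA+PBS mean. The 4 that rose came from both sides of the fate choice: Id3 and Foxo1 are memory factors, Tbx21 is an effector factor, and Eomes serves both. Over all tested genes, 39.4% were called, 22.3% higher and 17.1% lower, so 5 calls among 10 factors stand beside a background that is itself high. The groups did not overlap for 5 of the 10 factors, and for 52.1% of all tested genes. The median log2 fold change was 0.23 over the factors and 0.05 over all tested genes, and -0.09 and -0.31 after the T lineage scaling described next.

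Much of this direction depended on how libraries were scaled. Another scaling brought the 19 T lineage genes to the same level in each sample, which moved the median log2 fold change of all tested genes from 0.05 to -0.31. Under it, Eomes stayed higher and Zeb2 stayed lower, whereas Id3, Foxo1 and Tbx21 were no longer called, and Tcf7, Lef1 and Bach2 were called lower. That is 1 factor called higher and 4 lower, beside 5.14% and 59.2% of all tested genes under that scaling. Values under both scalings are therefore given for each factor.

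**Figure D2:**
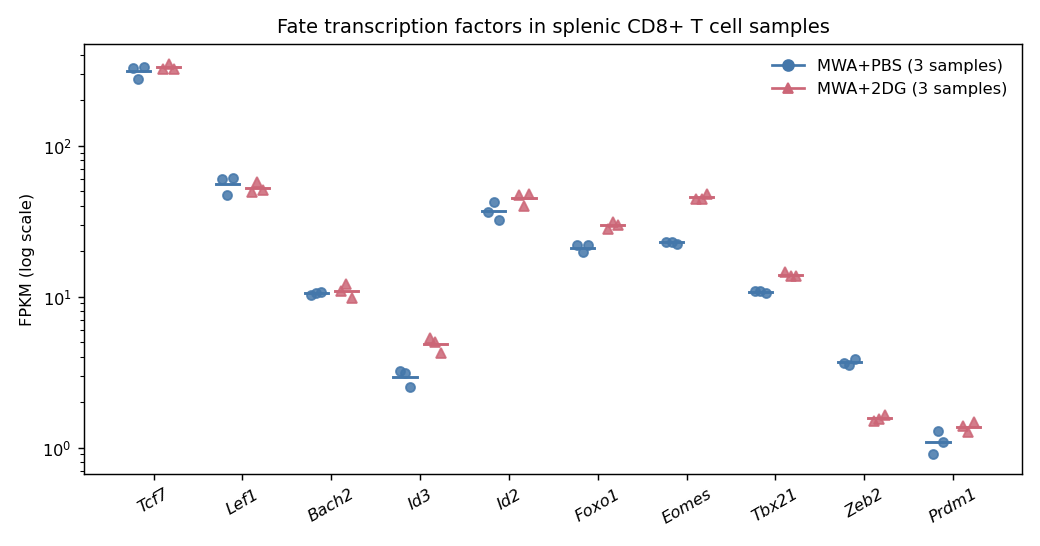
FPKM (log scale) of the 10 factors in each of the 6 samples; circles are MWA+PBS, triangles are MWA+2DG and lines are group means. Eomes sits at 22.4 to 23.1 in MWA+PBS against 44.5 to 47.8 in MWA+2DG, Zeb2 at 3.51 to 3.85 against 1.50 to 1.64, and Tcf7, Lef1, Bach2, Id2 and Prdm1 overlap between groups.

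Tcf7 and Lef1 are paralogous HMG-box factors of the Wnt pathway that keep naive and memory T cells able to renew. Tcf7 (ENSMUSG00000000782) was 327.8, 274.9 and 330.4 FPKM in MWA+PBS replicates 1, 2 and 3, and 323.7, 350.2 and 323.3 in MWA+2DG replicates 4, 5 and 6. The groups overlapped, and the lowest value was that of MWA+PBS replicate 2. The means were 311.0 ± 31.3 and 332.4 ± 15.4 (SD, n = 3 each) and the log2 fold change was 0.10 ± 0.08 (SE, limma adjusted p = 0.384) and a 95% interval from -0.10 to 0.30. It was the highest of the 10 factors in both groups, above 99.4% of the tested genes in MWA+PBS. Lef1 (ENSMUSG00000027985) was 59.8, 47.1 and 61.2 FPKM in MWA+PBS and 49.4, 57.1 and 50.9 in MWA+2DG. Its groups overlapped too, and MWA+PBS replicate 2 again had the lowest value. The means were 56.0 ± 7.76 and 52.5 ± 4.09 FPKM and the log2 fold change was -0.09 ± 0.11 (limma adjusted p = 0.559) and a 95% interval from -0.34 to 0.16. Without MWA+PBS replicate 2 the log2 fold change was 0.01 for Tcf7 and -0.20 for Lef1 (limma adjusted p = 0.0606), and leaving out each sample in turn gave 0.01 to 0.15 for Tcf7 and -0.20 to -0.02 for Lef1, with neither called. Scaled to T lineage genes, the log2 fold change was -0.32 for Tcf7 (limma adjusted p = 0.0215) and -0.50 for Lef1 (0.00868).

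Bach2, a repressor that restrains effector genes in quiescent lymphocytes, did not pass the test, with a 95% interval of the log2 fold change from -0.14 to 0.23. Bach2 (ENSMUSG00000040270) was 10.3, 10.5 and 10.8 FPKM in MWA+PBS and 10.9, 12.1 and 9.81 in MWA+2DG. The 3 MWA+PBS values all lay inside the range of the MWA+2DG values. The means were 10.5 ± 0.265 and 10.9 ± 1.17 and the log2 fold change was 0.05 ± 0.08 (limma adjusted p = 0.681). Without MWA+2DG replicate 5 the value was -0.03, and scaled to T lineage genes it was -0.34 (limma adjusted p = 0.0149). Bach2 is also a B cell factor, and the B cell markers given above were higher in MWA+2DG (63.6 to 70.0 summed FPKM) than in MWA+PBS (15.7 to 17.1); their part in the Bach2 value was not tested.

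Id2 and Id3 encode inhibitors that bind E proteins and keep them off DNA. In CD8+ T cells high Id3 marks memory precursors and Id2 supports effector cells. Id3 (ENSMUSG00000007872) was 3.19, 3.13 and 2.50 FPKM in MWA+PBS and 5.34, 4.97 and 4.24 in MWA+2DG. Every MWA+2DG sample was above every MWA+PBS sample. The means were 2.94 ± 0.382 and 4.85 ± 0.560 FPKM, a ratio of 1.65, and the log2 fold change was 0.57 ± 0.10 (limma adjusted p = 0.00443). With the T lineage scaling Id3 was at 0.24 and the call was lost (limma adjusted p = 0.0687). B cell markers were higher in MWA+2DG (63.6 to 70.0 summed FPKM, against 15.7 to 17.1), and the part of other cells in the Id3 rise was not tested. Id2 (ENSMUSG00000020644) was 36.2, 42.5 and 32.4 FPKM in MWA+PBS and 47.0, 39.8 and 48.1 in MWA+2DG. MWA+PBS replicate 2 lay above MWA+2DG replicate 5, so the groups overlapped. The means were 37.0 ± 5.12 and 45.0 ± 4.57 FPKM and the log2 fold change was 0.28 ± 0.11 (limma adjusted p = 0.0856). Id2 was called without MWA+PBS replicate 2 (0.38, limma adjusted p = 0.0224) and without MWA+2DG replicate 5 (0.36, limma adjusted p = 0.0489), and scaled to T lineage genes it turned to -0.14 (limma adjusted p = 0.214). Id2 stayed far above Id3 in every sample.

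Foxo1 is the forkhead factor that holds the naive and memory homing program, and Akt signaling drives its protein out of the nucleus, which RNA does not show. Foxo1 (ENSMUSG00000044167) was 21.8, 19.7 and 21.9 FPKM in MWA+PBS and 28.0, 31.2 and 29.7 in MWA+2DG. The groups were apart, with a gap wider than the spread within either. The means were 21.1 ± 1.22 and 29.7 ± 1.61 FPKM, a ratio of 1.40, and the log2 fold change was 0.47 ± 0.07 (limma adjusted p = 0.00117). With the T lineage scaling the change was 0.06 (limma adjusted p = 0.546), beside a median of 0.44 over the 19 T lineage genes on the unscaled values. Foxo1 is also expressed by B cells, whose markers were higher in MWA+2DG (63.6 to 70.0 summed FPKM, against 15.7 to 17.1); their part in the rise was not tested.

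Eomes and Tbx21 are the paired T-box factors of cytotoxic lymphocytes, and both were higher in MWA+2DG, Eomes by more. Eomes (ENSMUSG00000032446) was 23.1, 23.0 and 22.4 FPKM in MWA+PBS and 44.5, 44.6 and 47.8 in MWA+2DG. Each group was tight and the groups lay far apart. The means were 22.8 ± 0.337 and 45.6 ± 1.87 FPKM, a ratio of 2.00, and the log2 fold change was 0.97 ± 0.05 (limma adjusted p = 1.06e-05). It held when scaled to T lineage genes (0.56, limma adjusted p = 0.000116). Tbx21 (ENSMUSG00000001444) was 10.9, 10.8 and 10.5 FPKM in MWA+PBS and 14.5, 13.8 and 13.6 in MWA+2DG. Again every MWA+2DG sample was above every MWA+PBS sample. The means were 10.7 ± 0.200 and 14.0 ± 0.484 FPKM, a ratio of 1.302, and the log2 fold change was 0.35 ± 0.05 (limma adjusted p = 0.00185). After T lineage scaling Tbx21 was at -0.04 (limma adjusted p = 0.538). Natural killer cells also express both genes, and their summed markers, mostly Ncr1, were 10.1 to 11.3 FPKM in the MWA+PBS samples and 7.04 to 8.37 in the MWA+2DG samples; their part in the values of Eomes and Tbx21 was not tested.

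Zeb2, a zinc finger repressor that acts with T-bet in terminal effector cells, was the factor that fell. Zeb2 (ENSMUSG00000026872) was 3.64, 3.51 and 3.85 FPKM in MWA+PBS and 1.50, 1.54 and 1.64 in MWA+2DG. The 3 MWA+2DG values were all under the lowest MWA+PBS value. The means were 3.67 ± 0.172 and 1.56 ± 0.0721 FPKM and the log2 fold change was -0.87 ± 0.08 (limma adjusted p = 0.000122). The fall of Zeb2 was larger, -1.16, with T lineage scaling (limma adjusted p = 2.14e-05). Macrophages and dendritic cells also express Zeb2, and the summed macrophage markers were lower in MWA+2DG (104.2 to 110.9 FPKM) than in MWA+PBS (683.1 to 738.9); their part in the fall of Zeb2 was not tested.

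Prdm1, which drives terminal differentiation and is also the factor of plasma cells, was the lowest of the 10. Prdm1 (ENSMUSG00000038151) was 0.90, 1.28 and 1.08 FPKM in MWA+PBS and 1.38, 1.26 and 1.47 in MWA+2DG. The groups overlapped through MWA+PBS replicate 2 and MWA+2DG replicate 5. The means were 1.09 ± 0.190 and 1.37 ± 0.105 FPKM and the log2 fold change was 0.19 ± 0.11 (limma adjusted p = 0.200) and a 95% interval from -0.06 to 0.43. It was -0.05 after T lineage scaling (limma adjusted p = 0.722). The value was 0.32 with a pseudocount of 0.1 (limma adjusted p = 0.213), and 0.12 without MWA+PBS replicate 1 (limma adjusted p = 0.468). The motif-bearing promoter shown above belongs to a gene above only 3.34% of tested genes in MWA+PBS and 8.36% in MWA+2DG.

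**Figure D3:**
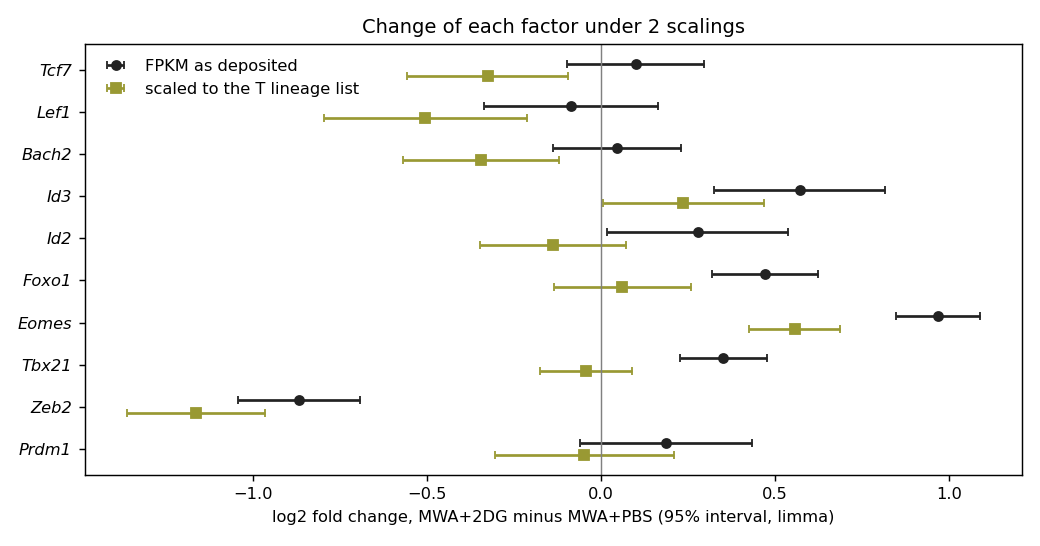
Log2 fold change of each factor, MWA+2DG minus MWA+PBS, with 95% intervals of the limma fit; circles use FPKM as deposited and squares use FPKM scaled to the T lineage list. Eomes (0.97 and 0.56) lies above 0 and Zeb2 (-0.87 and -1.16) below 0 under both, while Tbx21 moves from 0.35 to -0.04 and Tcf7 from 0.10 to -0.32.

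The order of the 10 levels changed in 2 places. In MWA+PBS the order from the highest mean was Tcf7, Lef1, Id2, Eomes, Foxo1, Tbx21, Bach2, Zeb2, Id3 and Prdm1, and only Tbx21 and Bach2 overlapped among neighbours. In MWA+2DG, Eomes stood above Id2, with overlapping ranges, and Id3 stood above Zeb2, with ranges apart; the other places were the same. Among all tested genes Eomes went from above 84.6% of them to above 93.7%, Id3 from 26.3% to 40.3%, and Zeb2 from 32.7% to 11.3%.

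Ratios within a sample cancel its scaling, apart from the pseudocount, so 5 pairs were compared as log2 ratios of FPKM + 1, as a description. Eomes over Tbx21 was 1.02, 1.02 and 1.03 in MWA+PBS and 1.55, 1.63 and 1.74 in MWA+2DG, with means of 1.02 ± 0.00436 and 1.64 ± 0.0941 (SD, n = 3 each). The 2 T-box factors thus stood at almost the same ratio in all 3 MWA+PBS samples, and Eomes was higher relative to Tbx21, by 0.62, in MWA+2DG. Lef1 over Zeb2 was 3.71, 3.42 and 3.68 in MWA+PBS and 4.33, 4.52 and 4.30 in MWA+2DG, a difference of 0.78 with the groups apart. The other pairs overlapped between groups: Id3 over Id2 averaged -3.27 ± 0.124 and -2.97 ± 0.234, Bach2 over Prdm1 averaged 2.47 ± 0.119 and 2.33 ± 0.205, and Tcf7 over Tbx21 averaged 4.73 ± 0.160 and 4.48 ± 0.0930. Leaving out single samples moved the first 2 of these differences: Id3 over Id2, at 0.29, was 0.19 without MWA+2DG replicate 5, and Bach2 over Prdm1, at -0.14, was -0.04 without MWA+2DG replicate 6, -0.09 without MWA+PBS replicate 1 and -0.25 without MWA+2DG replicate 5. Bach2 over Prdm1 also moved with the processing, to -0.27 with a pseudocount of 0.1 and -0.30 after T lineage scaling, and to -0.24 with quantile normalization. The ratio of a memory factor to an effector factor thus separated the groups for the pair with Zeb2, and not for Id3 over Id2, Bach2 over Prdm1 or Tcf7 over Tbx21. In the pair with Zeb2, Lef1 itself did not pass the test and Zeb2 fell. Macrophages also express Zeb2, and their markers were lower in MWA+2DG. A ratio does not cancel such a shift between cell types, and the part of macrophages in this ratio was not tested.

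**Figure D4:**
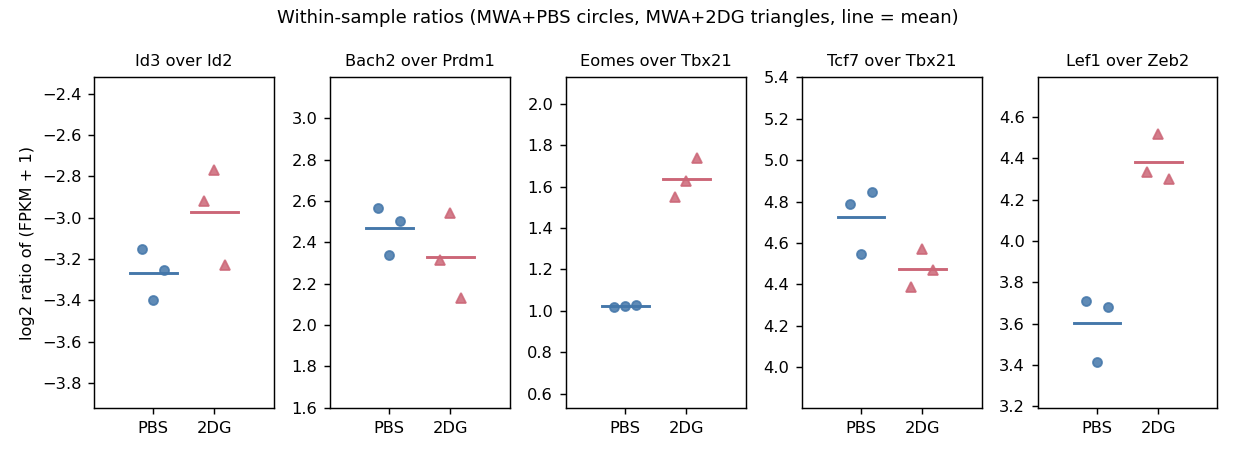
Within-sample log2 ratio of FPKM + 1 for 5 pairs of factors, each panel spanning the same number of log2 units; circles are MWA+PBS, triangles are MWA+2DG and lines are group means. Eomes over Tbx21 (1.02 against 1.64) and Lef1 over Zeb2 (3.60 against 4.38) are apart, and the other 3 pairs overlap.

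Other regulators of the same fate choice were called in both directions. Of 29 further fate regulators, 27 were tested; 4 were called higher, 4 lower and 19 did not pass, beside 22.3% higher and 17.1% lower over all tested genes, and the median log2 fold change was -0.01, and -0.38 after T lineage scaling. The higher ones were Stat4, which relays interleukin-12 (41.2 ± 1.51 to 59.8 ± 2.28 FPKM, log2 fold change 0.53), Irf4, induced by antigen receptor signals (0.40), Bcl11b, a T cell identity factor (0.36), and Tox, known from exhausted T cells (0.30). The lower ones were Myb, which sustains stem-like memory cells (18.1 ± 0.822 to 11.2 ± 0.782 FPKM, log2 fold change -0.64), Runx3, a factor of cytotoxic and resident cells (-0.52, limma adjusted p = 0.0291, groups overlapping), Bhlhe40 (-0.51) and Foxo3 (-0.43). Foxo1 and Foxo3 passed the test in opposite directions, although scaled to T lineage genes Foxo3 (-0.83) was called and Foxo1 was not. Other tested relatives of the 10 factors did not pass: log2 fold changes were -0.08 for Tcf3, 0.16 for Tcf12, 0.11 for Zeb1 and 0.01 for Bach1. Id1 (-0.43, limma adjusted p = 0.0517) and Foxo4 (-0.16, limma adjusted p = 0.144) did not pass either. Groups were apart for 14 of the 27 tested regulators, with Id1, Tcf12, Zeb1 and Foxo4 among them, beside 52.1% of all tested genes. Tcf3 and Tcf12 encode E proteins that Id2 and Id3 bind. Scaled to T lineage genes, 22 of the 27 were called lower in limma, beside 59.2% of all tested genes, and the other 5, with Stat4, Irf4, Bcl11b and Tox among them, were not called.

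Genes that mark the memory side, many of them known to need TCF1 or Foxo1, were called in both directions. All 12 were tested; 6 were called higher, 2 lower and 4 did not pass, beside 22.3% higher and 17.1% lower over all tested genes. The median log2 fold change was 0.25, and -0.16 after T lineage scaling. Genes of lymph node exit and entry were among those that rose: S1pr1, which lets T cells leave lymph nodes, went from 74.7 ± 0.382 to 131.2 ± 1.68 FPKM (0.80), and Ccr7, a chemokine receptor for lymph node entry, from 87.0 ± 5.18 to 136.3 ± 4.14 (0.64). Cd27, a costimulatory receptor (0.80), Bcl2, a survival factor (0.44), and Slamf6 (0.25) also rose. Treml2 (-0.31) and Actn1 (-0.23, groups overlapping) fell. Scaled to T lineage genes, 3 of the 12 were called higher, S1pr1, Cd27 and Ccr7, and 5 lower, beside 5.14% and 59.2% of all tested genes. B cells also express Ccr7, and their summed markers were higher in MWA+2DG (63.6 to 70.0 FPKM); their part in these values was not tested.

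Genes listed here as effector-side, several of them known targets of T-bet and Eomes, were mostly called higher on the values as deposited. The list was chosen by hand, and its genes do not by themselves tell effector cells from memory cells. All 16 were tested; 11 were called higher, 2 lower and 3 did not pass, beside 22.3% higher and 17.1% lower over all tested genes, and the median log2 fold change was 0.56, and 0.18 after T lineage scaling. Cxcr3, the chemokine receptor that T-bet induces, was 18.4, 14.4 and 13.9 FPKM in MWA+PBS and 45.2, 44.6 and 50.1 in MWA+2DG (1.53). Cxcr6, a receptor for tissue homing, rose by 1.25, the granzyme gene Gzmk by 1.14, S1pr5 by 0.73, the chemokine gene Ccl5 by 0.66 and Il18rap by 0.60 on the log2 scale. Gzmb, the granzyme of armed killers, fell by 0.31, from 13.1 ± 0.422 to 10.4 ± 0.830 FPKM, and Il2rb fell by 0.24. Gzma, Ifng and Cx3cr1 did not pass the test. Scaled to T lineage genes, 5 of the 16 were called higher (Cxcr3, Cxcr6, Gzmk, S1pr5 and Il18rap) and 3 lower, beside 5.14% and 59.2% of all tested genes. Natural killer cells share many of these genes, and their summed markers were lower in MWA+2DG (7.04 to 8.37 FPKM, against 10.1 to 11.3); their part in these values was not tested.

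**Figure D5:**
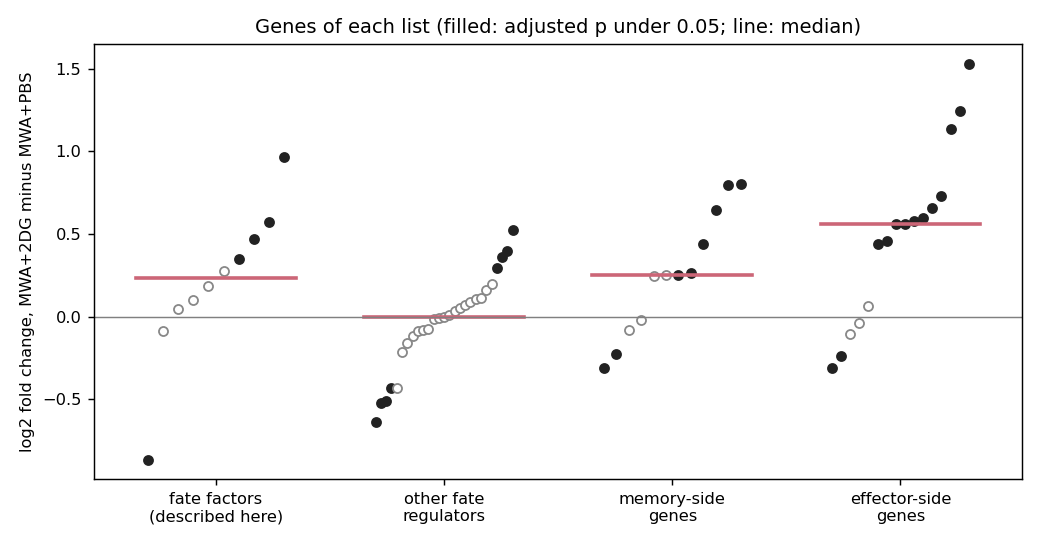
Log2 fold change, MWA+2DG minus MWA+PBS, of each tested gene in 4 lists, ordered by value; filled points passed an adjusted p under 0.05, open points did not, and lines are medians. The median is 0.23 for the 10 factors, -0.01 for the other fate regulators, 0.25 for memory-side genes and 0.56 for effector-side genes.

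Profiles most like each factor were found by Pearson's r of log2(FPKM + 1) over the 6 samples, as a description. Since all points share their group, r was above 0.9 for many genes: for 2032 tested genes with Eomes, 1954 with Tbx21, 1703 with Zeb2, 1354 with Foxo1 and 1255 with Id3. For the factors whose groups overlapped the numbers were 666 for Id2, 371 for Prdm1, 158 for Tcf7, 153 for Lef1 and 35 for Bach2. Among the closest to Eomes was Slamf7 (r = 0.999, log2 fold change 0.93), and the closest to Zeb2 were Lipa (0.999, log2 fold change -0.39) and BC035044 (0.999, log2 fold change -1.60). Among the closest for the others were Trbv13-1 and Trub2 for Tbx21, Sntb2 and Cep68 for Foxo1, Trdmt1 and Zfp408 for Id3, Idh3b and Gm5469 for Id2, Rpp14 and Zfp456 for Prdm1, Crtc1 and Traj36 for Tcf7, Pfas for Lef1, and Endog and Zscan21 for Bach2.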

How the data were processed

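RNA-seq of CD8+ T cells from spleen was measured in 3 MWA+PBS and 3 MWA+2DG samples, grouped by their titles. Poly(A) libraries were strand-marked, with molecular identifiers in the adapters. The submitters' processing notes name cutadapt 1.9, HISAT2 2.0.4, UMI-tools, StringTie 1.3.4d and the build mm9, and the study's methods add fastp and ballgown. No source used here says whether fragments were counted by strand. The authors deposited FPKM per gene, with at most 2 decimals and no counts, so the depth of a sample is unknown and intervals cover only the spread of samples. FPKM is relative to the library, so transcripts that take a larger share lower the others.

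Symbols were matched for 28689 of 28773 gene IDs. Genes with a mean FPKM of at least 1 were fitted as log2(FPKM + 1) in limma 3.58.1 (R 4.3.3; lmFit, eBayes with a trend), without covariates, two-sided, with Benjamini-Hochberg adjustment over all 12444 genes. The fit was tried on simulated data with independent noise and few changed genes. That setting lacks the shifts between cell types seen here, so it cannot tell how the fit handles them. T lineage scaling divided each sample by a factor, the geometric mean of the 19 genes relative to its mean over samples (0.83 to 0.882 in MWA+PBS, 1.11 to 1.19 in MWA+2DG). All 10 factors were named. From the other lists, up to 6 called genes with the largest change were named, with Tcf3, Tcf12, Zeb1, Foxo3, Bach1, Runx3 and Tox as relatives or partners, and so were the 2 genes of highest r for each factor, the first gene of each marker list and those at 0, and Cd8a and Cd3e as a check of the label; some genes that this rule names are not reported here. Bcl11b, Tcf4, Id1, Foxo4, Bank1, Klra4, Mzb1, Foxp3, Cd40lg, Ctla4, Cd209a, Slamf6, Actn1, Gzmb, Il2rb, Gzma, Ifng and Cx3cr1 were named to complete counts after their values were seen. The factors, lists and tests were chosen with earlier results of these data known. Alternatives were another pseudocount, filter, scaling, eBayes setting or sample weighting, leaving out each sample, and the study's rule (P under 0.05 and more than 0.25 on the log2 scale). Promoter coordinates are on GRCm38.p6 and were not joined to the mm9 values.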

Additional observations from a re-analysis of the deposited data

How the results depend on the processing

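Across the alternatives run, Eomes stayed called higher, and Zeb2 stayed called lower wherever it was tested. The scaling to T lineage genes changed most. It gave 8010 called genes, with 7.99% of calls higher, against 4907 and 56.5% in the values as deposited, 47.2% with median ratio scaling and 49.3% without a filter. With it, 1 factor was called higher and 4 lower, 22 of the fate regulators and 8 of the effector-side genes were called, and log2 fold changes turned negative for Tcf7 (-0.32), Bach2 (-0.34), Id2 (-0.14), Tbx21 (-0.042) and Prdm1 (-0.047). The cause was not tested. Smaller reversals were Tcf7 with quantile normalization (-0.015) and Bach2 with median ratio scaling (-0.0085). When genes under a mean FPKM of 5 were left out, 2951 were called and 0 factors were called lower by limma, since Zeb2, Id3 and Prdm1 were then not tested. With a pseudocount of 0.1, the difference in Lef1 over Zeb2 was 1.09 in place of 0.78. With sample weights, Id2 (0.33) and Prdm1 (0.28) were called higher. Leaving out each sample in turn gave 3706 to 5195 called genes, 4 to 5 factors called higher and 1 lower, 7 to 9 fate regulators, 6 to 9 memory-side and 11 to 12 effector-side genes; Bach2 ranged from -0.026 to 0.11, Eomes from 0.94 to 0.99 and Zeb2 from -0.89 to -0.84. The study's rule called 4752 genes, 5 factors higher, with Id2 added, 1 lower, and 9 fate regulators. No paired analysis was possible because the groups share no replicate number. Without counts, precision at low FPKM, as for Prdm1, is not known, and 3 samples a group limit every interval.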

Other observations

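Genes on the opposite strand overlap several of the factors in GENCODE M21, and without knowing whether strand was used their reads cannot be told apart from the factor's. Their levels were low. Zeb2os was 0.61, 0.49 and 0.48 FPKM in MWA+PBS and 0.12, 0.04 and 0.09 in MWA+2DG, lower in the same group as Zeb2. Gm33460, opposite Eomes, was 1.11, 0.70 and 0.28 FPKM in MWA+PBS and 2.07, 2.24 and 2.47 in MWA+2DG, higher in the same group as Eomes. Bach2os was 1.03, 0.82 and 0.42 FPKM in MWA+PBS and 0.25, 0.23 and 0.12 in MWA+2DG, with the groups apart although those of Bach2 overlapped. Gm43352, opposite Lef1, was 2.15 to 4.03 and 2.16 to 2.90 FPKM, and A630014C17Rik, opposite Tcf7, was 1.05 to 1.86 and 1.57 to 2.21 FPKM, and both overlapped between groups. Tcf4, an E protein gene below the level tested, was 0.88, 0.92 and 0.89 FPKM in MWA+PBS and 0.35, 0.38 and 0.38 in MWA+2DG, with the groups apart.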
